A study of Mus musculus with 7 samples.

Results

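The genes described here are 7 genes of the sustentacular cell, the support cell of the olfactory epithelium, and they were followed in nasal tissue of mice that inhaled diesel exhaust particles (DEPs). They are *Ermn*, *Sec14l3*, *Cbr2*, *Gpx6*, *Aldh1a7*, *Notch2* and *Hes1*, and they were chosen by name, as known genes of this cell, when earlier results of these arrays were already known. A probe was taken as theirs when its RefSeq accession belongs to one of these symbols. This gave 11 of the 39429 probes on the array, 2 each for *Ermn*, *Sec14l3*, *Cbr2* and *Notch2* and 1 each for *Gpx6*, *Aldh1a7* and *Hes1*, so that 7 of 21367 gene symbols with a probe are described. All 11 probes passed the filter on dim probes, which asked that a spot be well above background for either RNA on at least 3 of the 7 arrays, and 25197 probes for 15738 gene symbols were tested.

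All mice were BALB/c females, given as 6 weeks old. Exposed mice breathed DEPs at 100 μg/m3 from a nebulizer for 1 hour a day on 5 days a week, over 4 weeks or over 8 weeks, while control mice received saline without particles. Each array carried RNA of exposed tissue labelled with Cy5 and RNA of control tissue labelled with Cy3, on 4 arrays after 4 weeks and on 3 arrays after 8 weeks, named as biological replicates. The labels speak of 32 mice, but the number of mice behind one array is not given in the sources used here. The tissue was nasal septum and turbinates taken whole, so fewer support cells and less RNA per support cell cannot be told apart in any value below. The dyes were never swapped, so a dye effect and the exposure cannot be told apart. All 4-week arrays shared 1 slide and all 8-week arrays another, so effects of the slide and of the length of exposure cannot be told apart either. The age of the mice at collection is not given in the sources used here. Mice of 8 weeks, controls included, may have been older than those of 4 weeks. Age cannot be told apart from the slide or the length of exposure.

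Sustentacular cells span the height of the olfactory epithelium, wrap the dendrites and cell bodies of olfactory neurons, and keep up the ion and mucus environment at the surface. They hold large amounts of enzymes that break down odorants and inhaled chemicals, and they engulf dying neurons. During development and repair they arise from basal cells, and Notch signalling, in which a ligand on one cell releases the intracellular part of a receptor on its neighbour, is known to favour the support cell fate over the neuronal fate. *Ermn* encodes ermin, an actin-binding protein of the ezrin, radixin and moesin type that is also known from myelinating oligodendrocytes. *Sec14l3* encodes a lipid-binding protein of the Sec14 family. *Cbr2* encodes a carbonyl reductase and *Aldh1a7* an aldehyde dehydrogenase, which act on reactive carbonyl compounds, and *Gpx6* encodes a selenium-independent glutathione peroxidase of the olfactory mucosa in the mouse. *Notch2* encodes a Notch receptor and *Hes1* a transcriptional repressor that Notch signalling switches on.

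The promoters of the 3 genes whose ratios were higher in DEP tissue at 4 weeks are shown because one of them, *Ermn*, parted from the others at 8 weeks. They run from 250 bases before to 50 bases after the transcription start, read 5′ to 3′ along the gene, from RefSeq on GRCm38.p6. Capitals mark matches on either strand to 5 short motifs, TGGGAA (the core bound by Rbpj, the DNA-binding partner of Notch), CACNAG (the N box, which Hes1 can bind), CACGTG (the E box), TGACNNNGC (the core of the antioxidant response element) and GCGTG (the core bound by the aryl hydrocarbon receptor).
Ermn, chr2:58052815-58053114, strand -: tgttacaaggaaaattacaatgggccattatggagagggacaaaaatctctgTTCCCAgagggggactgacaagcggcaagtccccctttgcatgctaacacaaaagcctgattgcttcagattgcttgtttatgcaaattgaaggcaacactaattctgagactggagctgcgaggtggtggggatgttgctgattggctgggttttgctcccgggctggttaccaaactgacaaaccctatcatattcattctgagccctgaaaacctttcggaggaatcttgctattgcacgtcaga
Sec14l3, chr11:4064603-4064902, strand +: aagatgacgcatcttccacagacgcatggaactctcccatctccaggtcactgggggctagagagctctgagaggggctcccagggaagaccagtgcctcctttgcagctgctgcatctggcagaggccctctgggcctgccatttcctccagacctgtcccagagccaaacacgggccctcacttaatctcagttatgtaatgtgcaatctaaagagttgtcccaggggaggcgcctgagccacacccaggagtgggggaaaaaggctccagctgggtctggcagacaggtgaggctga
Cbr2, chr11:120731972-120732271, strand -: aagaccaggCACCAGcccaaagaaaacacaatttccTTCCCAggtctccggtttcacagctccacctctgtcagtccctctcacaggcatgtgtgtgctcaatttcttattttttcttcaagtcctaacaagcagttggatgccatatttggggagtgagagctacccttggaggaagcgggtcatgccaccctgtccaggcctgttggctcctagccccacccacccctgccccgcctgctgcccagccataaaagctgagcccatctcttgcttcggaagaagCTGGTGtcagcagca

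In *Ermn* the capitals are a match to TGGGAA on the opposite strand. *Cbr2* had such a match too, with 2 matches to the N box, 1 of them on the opposite strand. *Sec14l3* matched none of the 5 motifs in this window. Over the 6 genes with a promoter in the table, TGGGAA was found in 2 against 25.6% of all 32851 promoters, the N box in 4 against 42.5%, and the E box in 1, *Gpx6*, against 7.15%. The core of the aryl hydrocarbon receptor was found in 1, *Notch2*, against 32.4%, and the antioxidant core in 0 of 6 against 12.4%. None of the 5 motifs lies within another, and the window of *Gpx6* belongs to a start inside the annotated gene. *Hes1* was not in the table and was not searched. These are matches of letters and say nothing of binding.

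Single arrays had 17105 to 26964 probes well above background in a channel, and no spot was saturated. The log2 ratios of all tested probes correlated at r = 0.44 to 0.49 among the 4-week arrays, 0.71 to 0.88 among the 8-week arrays, and 0.09 to 0.29 between the exposure times. A value below is the log2 ratio of DEP over control, where 0 means equal signal and 1 means 2 times the signal in DEP tissue, with the SD over arrays. A gene is represented by its brighter probe unless stated, and it was called when limma's adjusted p over all tested probes was at most 0.05.

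After 4 weeks, 3 of the 7 genes were higher in DEP tissue (*Cbr2*, *Sec14l3* and *Ermn*) and 1 was lower (*Hes1*). Over all tested genes 38.5% were called at 4 weeks, 20.3% higher and 18.1% lower, so a call by itself is common. After 8 weeks, *Ermn* was higher by 3.25-fold while 5 genes, *Sec14l3*, *Cbr2*, *Gpx6*, *Aldh1a7* and *Hes1*, were lower by 1.34-fold to 1.65-fold. Over all tested genes 37% were called at 8 weeks, 17.5% higher and 19.6% lower. *Notch2* was called at neither time. Changes of at least 2-fold at an unadjusted p of at most 0.01 were the thresholds of the study. By the brighter probes, none of the 7 genes met them at 4 weeks and *Ermn* alone did at 8 weeks. Of all tested genes, 1.24% and 2.57% did. By the dimmer probes at 8 weeks, *Sec14l3* met them, 2.07-fold lower with an unadjusted limma p of 0.000139, and *Ermn* did not.

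**Figure D1:**
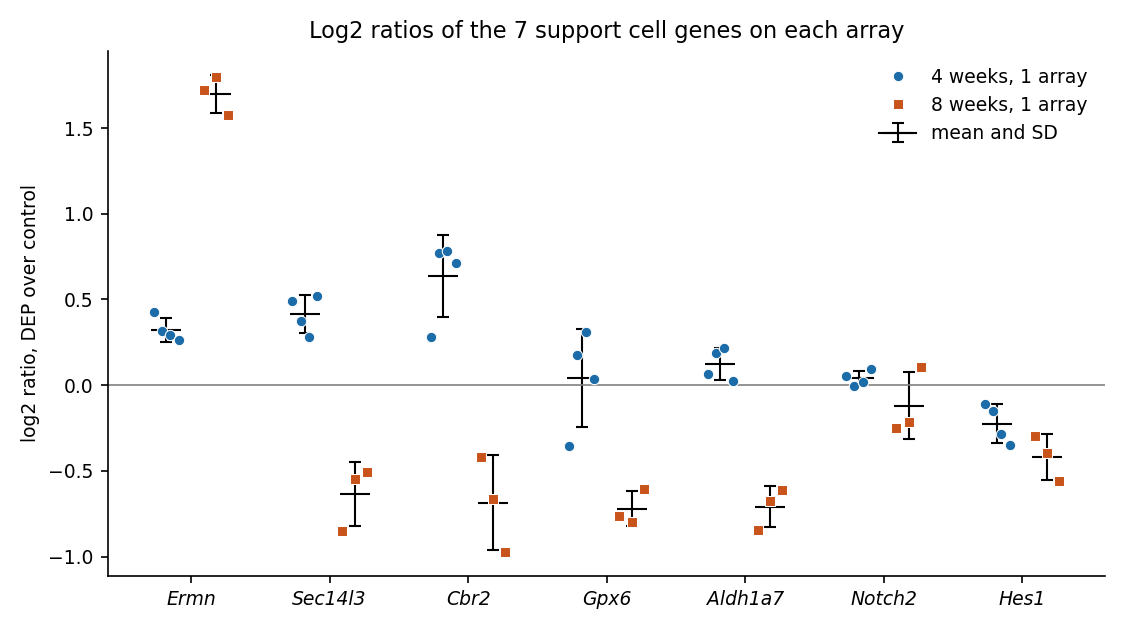
Log2 ratio of DEP over control (vertical axis) for the brighter probe of each of the 7 genes, with 1 point per array, blue circles for the 4 arrays of 4 weeks and orange squares for the 3 arrays of 8 weeks, and bars for the mean and SD. *Ermn* stands at 1.58 to 1.80 after 8 weeks, while *Sec14l3*, *Cbr2*, *Gpx6* and *Aldh1a7* lie between -0.97 and -0.42.

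*Ermn* lies at chr2:58045115-58052864 (GRCm38.p6). Its brighter probe had log2 ratios of 0.42, 0.31, 0.29 and 0.26 on replicates 1 to 4 of 4 weeks and of 1.72, 1.80 and 1.58 on replicates 1 to 3 of 8 weeks. Every array was above 0, and the arrays of the 2 times were far from overlapping. The mean was 0.32 ± 0.07 (SD, n = 4) at 4 weeks with an adjusted p of 0.00286 by limma, a 1.25-fold difference, and 1.70 ± 0.11 (SD, n = 3) at 8 weeks with an adjusted p of 2.37e-06 by limma. Of 15738 tested genes, 22 had a higher log2 ratio at 8 weeks, which places *Ermn* at rank 23. Being called higher at both times, as the brighter probe of *Ermn* was, was seen in 6.28% of all tested genes. The dimmer probe of *Ermn* did not follow the brighter one at 8 weeks. Its log2 ratios were 0.79, 0.54, 0.58 and 0.19 at 4 weeks and 0.24, 0.29 and 0.003 at 8 weeks. At 8 weeks its mean of 0.18 ± 0.16 (SD, n = 3; limma adjusted p = 0.247) lay below that of the brighter probe by 1.48 to 1.57 on each of the 3 arrays. The dimmer probe gave background-subtracted intensities of 53.5 to 121 against 1217 to 4225 for the brighter one, and in control tissue it was well above background on 1 of 4 arrays of 4 weeks and on 3 of 3 of 8 weeks. The rise of *Ermn* at 8 weeks thus rests on 1 of its 2 probes.

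*Sec14l3* lies at chr11:4064853-4078990. Its brighter probe had log2 ratios of 0.49, 0.38, 0.28 and 0.52 on the 4 arrays of 4 weeks, all above 0. After 8 weeks the 3 arrays stood at -0.85, -0.55 and -0.51, all below 0. The means were 0.42 ± 0.11 (SD, n = 4; limma adjusted p = 0.00325), 1.33-fold higher in DEP tissue, and -0.64 ± 0.19 (SD, n = 3; limma adjusted p = 0.000842), 1.55-fold lower. The dimmer probe turned the same way, with means of 0.42 ± 0.36 (SD, n = 4) and -1.05 ± 0.21 (SD, n = 3) and limma adjusted p-values of 0.0401 and 0.00148, although replicate 4 of 4 weeks stood at 0.003 by this probe.

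*Cbr2* lies on the same chromosome at chr11:120729485-120732025. Its brighter probe had log2 ratios of 0.28, 0.77, 0.78 and 0.71 at 4 weeks, of which replicate 1 stood apart below the other 3 arrays. At 8 weeks they were -0.42, -0.67 and -0.97. The means were 0.64 ± 0.24 (SD, n = 4; limma adjusted p = 0.00352), 1.55-fold higher in DEP tissue, and -0.69 ± 0.28 (SD, n = 3; limma adjusted p = 0.0047), 1.61-fold lower. By the dimmer probe the means were 0.52 ± 0.17 (SD, n = 4) and -0.69 ± 0.24 (SD, n = 3), so both probes of *Cbr2* had the same sign on all 7 arrays. Being called higher at 4 weeks and lower at 8 weeks, as *Sec14l3* and *Cbr2* were, was seen in 4.1% of all tested genes.

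**Figure D2:**
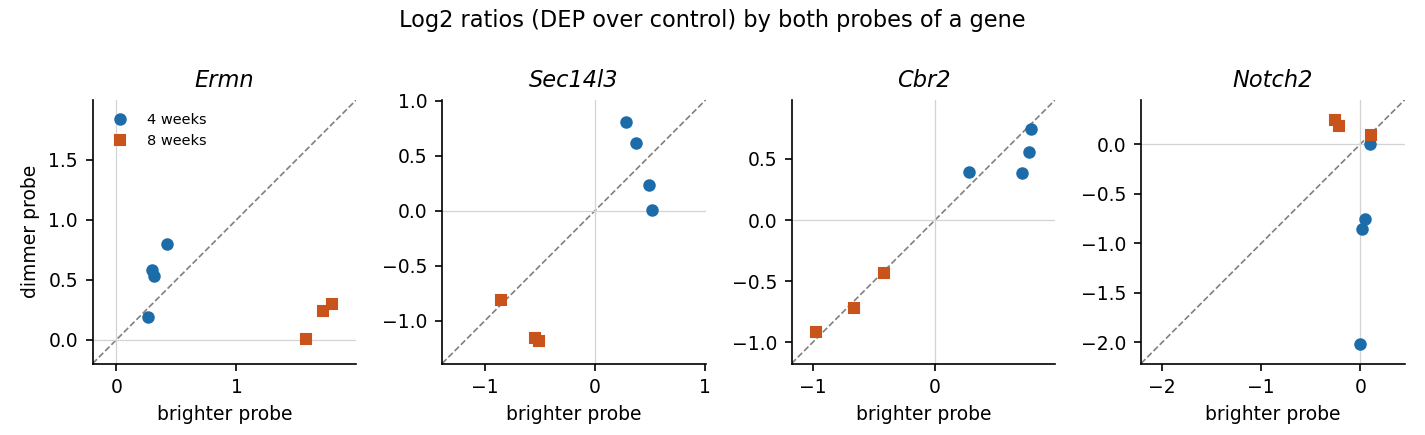
Log2 ratio of DEP over control by the dimmer probe (vertical axis) against the brighter probe (horizontal axis) for the 4 genes with a pair of probes, with 1 point per array, blue circles for 4 weeks and orange squares for 8 weeks, and a dashed line of equal values. *Cbr2* lies along the line, *Ermn* at 8 weeks lies below it by 1.48 to 1.57, and the dimmer probe of *Notch2* was mostly not well above background.

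*Gpx6* and *Aldh1a7* were not called at 4 weeks and were lower at 8 weeks. *Gpx6* (chr13:21295465-21319625) had log2 ratios of -0.36, 0.17, 0.31 and 0.04 at 4 weeks, on both sides of 0. At 8 weeks they were -0.76, -0.80 and -0.60, below every 4-week array. The mean of 0.04 ± 0.29 (SD, n = 4; limma adjusted p = 0.775) at 4 weeks changed sign with the processing, and at 8 weeks the mean was -0.72 ± 0.10 (SD, n = 3; limma adjusted p = 0.00254), 1.65-fold lower in DEP tissue. *Aldh1a7* (chr19:20692953-20727556) had log2 ratios of 0.06, 0.19, 0.22 and 0.02 at 4 weeks and of -0.84, -0.67 and -0.61 at 8 weeks. All 4 values of 4 weeks were above 0 but small, with a mean of 0.12 ± 0.09 (SD, n = 4; limma adjusted p = 0.133). At 8 weeks the mean was -0.71 ± 0.12 (SD, n = 3; limma adjusted p = 0.00017), 1.63-fold lower.

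*Hes1* (chr16:30065357-30067796) was below 0 on all 7 arrays, with -0.11, -0.15, -0.29 and -0.35 at 4 weeks and -0.30, -0.39 and -0.56 at 8 weeks, so that the 2 times overlapped. Its means were -0.22 ± 0.11 (SD, n = 4; limma adjusted p = 0.0253) and -0.42 ± 0.13 (SD, n = 3; limma adjusted p = 0.00335), and the probe was well above background on every array at 47 to 149 units of intensity. The call of *Hes1* at 4 weeks was lost without any of replicates 2, 3 or 4, with limma adjusted p-values of 0.0514, 0.0842 and 0.097, while its direction did not change. *Notch2* (chr3:98013538-98150367) had log2 ratios of 0.05, -0.01, 0.02 and 0.10 at 4 weeks and of -0.25, -0.21 and 0.11 at 8 weeks. The 95% interval of its mean ran from -0.11 to 0.19 at 4 weeks and from -0.29 to 0.05 at 8 weeks. The dimmer probe of *Notch2* gave -0.76, -2.01, -0.86 and -0.001 at 4 weeks, where each RNA was well above background on only 2 of 4 arrays, and at 8 weeks it was well above background on 0 of 3 arrays in control tissue and 1 of 3 in DEP tissue. Its limma adjusted p at 4 weeks was 0.0295, so the probes of *Notch2* differ in their call.

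The difference between the exposure times was tested directly. The genes *Cbr2*, *Sec14l3*, *Aldh1a7* and *Gpx6*, had a lower log2 ratio after 8 than after 4 weeks, and *Ermn* had a higher one, which makes 5 of 7 called where 31.6% of all tested genes were, 14% upward and 17.6% downward. The differences of 8 minus 4 weeks were -1.32 for *Cbr2*, -1.05 for *Sec14l3*, -0.83 for *Aldh1a7* and -0.76 for *Gpx6*, with limma adjusted p-values of 0.00118, 0.000452, 0.000523 and 0.00906. For *Ermn* the difference was 1.38 with a limma adjusted p of 4.03e-05 by the brighter probe and -0.35 with one of 0.113 by the dimmer probe. At 2-fold and an unadjusted p of at most 0.01 the difference was met by *Ermn*, *Cbr2* and *Sec14l3*, against 2.92% of all tested genes. For *Hes1* it was -0.19, with a 95% interval of -0.41 to 0.03, and for *Notch2* it was -0.16, with an interval of -0.39 to 0.07. The arrays of the 2 times did not overlap for *Ermn*, *Sec14l3*, *Cbr2*, *Gpx6* and *Aldh1a7*, and 42.9% of all tested genes were in that position.

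The levels of the separate RNAs show on which side of the ratio the times parted. These levels are log2 intensities of one channel after normalization within and between arrays, and they are compared only within a probe. In control tissue, *Sec14l3* stood at 12.61 ± 0.07 (SD, n = 4) at 4 weeks and at 14.20 ± 0.11 (SD, n = 3) at 8 weeks, a 3-fold higher level at 8 weeks with a limma adjusted p of 8.37e-08. Its level in DEP tissue went from 13.03 ± 0.04 (SD, n = 4) to 13.56 ± 0.23 (SD, n = 3), a rise of 0.53 with a limma adjusted p of 0.00063. By the dimmer probe of *Sec14l3*, control tissue was higher at 8 weeks by 1.44 (limma adjusted p = 2.38e-05) and DEP tissue differed by -0.03 (limma adjusted p = 0.904), so the rise in DEP tissue rests on 1 of 2 probes. *Cbr2* rose in control tissue from 15.52 ± 0.19 (SD, n = 4) to 16.56 ± 0.13 (SD, n = 3; limma adjusted p = 0.000147), and its level in DEP tissue differed by -0.29 (limma adjusted p = 0.137). *Aldh1a7* rose in control tissue from 9.72 ± 0.07 (SD, n = 4) to 10.61 ± 0.01 (SD, n = 3; limma adjusted p = 1.81e-06), and its 4 values of 9.75 to 10.01 in DEP tissue at 4 weeks overlapped the 3 of 9.78 to 9.99 at 8 weeks.

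*Gpx6* and *Hes1* had the same layout at a smaller size, with control tissue higher at 8 weeks by 0.62 and 0.36 (limma adjusted p = 0.00257 and 0.00972) and DEP tissue differing by -0.14 and 0.16 (limma adjusted p = 0.405 and 0.174). *Notch2* was higher at 8 weeks by 0.45 in control tissue and by 0.29 in DEP tissue, both called. By its dimmer probe, which was well above background on 2 of 4 arrays of 4 weeks and on 0 of 3 of 8 weeks in control tissue, *Notch2* differed by -1.22 in control tissue (limma adjusted p = 0.0318) and by -0.14 in DEP tissue (limma adjusted p = 0.812). *Ermn* was the reverse of the enzymes. Its level in control tissue was 10.45 ± 0.27 (SD, n = 4) and 10.46 ± 0.24 (SD, n = 3) at the 2 times, and in DEP tissue it rose from 10.77 ± 0.32 (SD, n = 4) to 12.16 ± 0.23 (SD, n = 3), with limma adjusted p-values of 0.968 and 1.9e-05. By its dimmer probe, *Ermn* differed by 0.54 in control tissue and by 0.20 in DEP tissue, with limma adjusted p-values of 0.00188 and 0.165. In all, 6 of the 7 genes were called higher at 8 weeks in control tissue, where 17.9% of all tested genes were, and 3 of 7, *Ermn*, *Sec14l3* and *Notch2*, in DEP tissue, where 20.5% were. None of those 3 calls in DEP tissue was shared by the dimmer probe of the gene. The lower ratios of *Cbr2*, *Gpx6*, *Aldh1a7* and *Hes1* at 8 weeks therefore went with higher control levels on the 8-week slide and with no called change of the DEP level between slides.

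**Figure D3:**
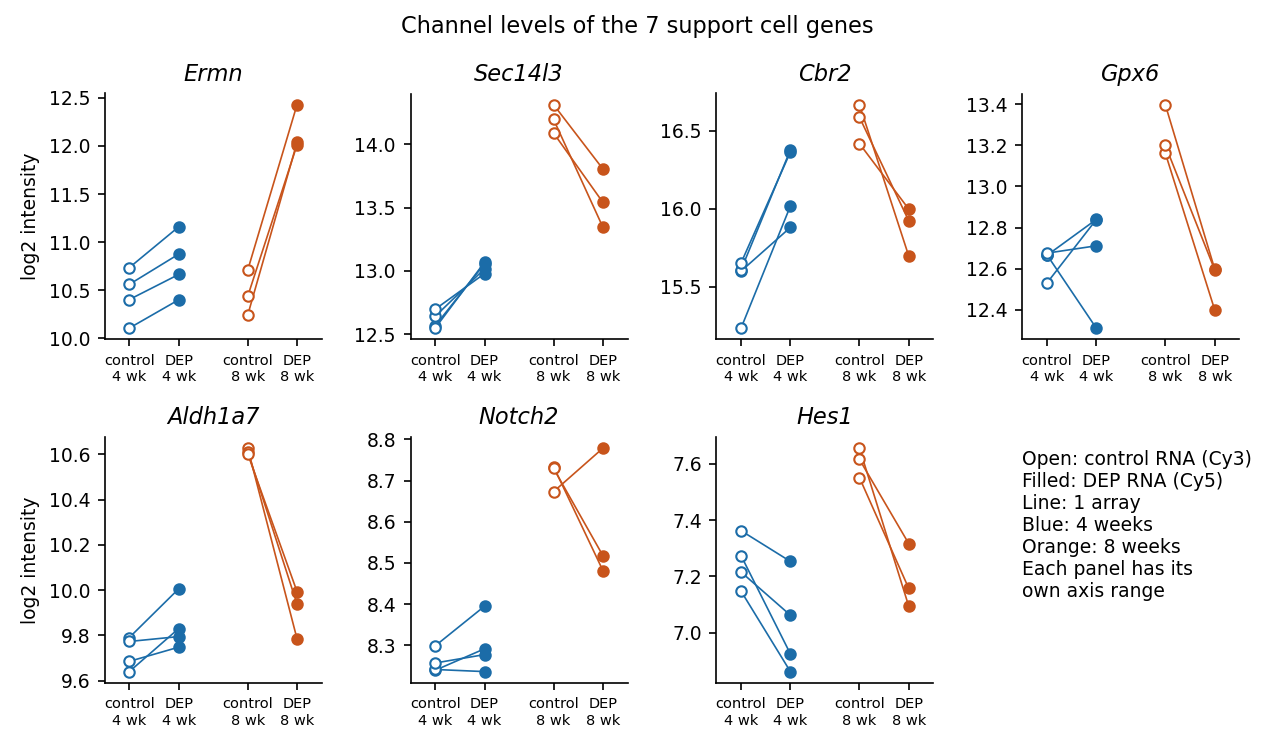
Log2 intensity (vertical axis, each panel with a range of its own) of the brighter probe of each gene in control RNA (open points) and DEP RNA (filled points) at 4 weeks (blue, 4 arrays) and 8 weeks (orange, 3 arrays), with a line joining both RNAs of an array. By these probes the control level was called higher at 8 than at 4 weeks for every gene but *Ermn*, against 17.9% of all tested genes. The DEP level was so for *Ermn*, *Sec14l3* and *Notch2*, against 20.5%. The dimmer probes are not shown.

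Further markers of sustentacular cells were read from a fixed list of 12, of which 10 were tested and *Cyp2a5* and *Ugt2a2* have no probe named here. The other cytochromes and conjugating enzymes moved as *Sec14l3* and *Cbr2* did. *Cyp2g1*, a cytochrome P450 of the olfactory mucosa, was at 0.16 at 4 weeks and -0.50 at 8 weeks (limma adjusted p = 0.0469 and 0.000575), *Cyp1a2* at 0.44 and -0.43, and the glucuronosyltransferase *Ugt2a1* at 0.34 and -0.36, all called at both times. The keratin *Krt18* was called only at 8 weeks, at -0.30, and *Krt8* was lower at both times, at -0.51 and -0.59. Over the 10 genes, 4 were higher and 2 lower at 4 weeks, and 1 was higher and 6 lower at 8 weeks. Their median log2 ratio was 0.12 at 4 weeks and -0.36 at 8 weeks, that of the 7 genes 0.12 and -0.64, and that of all tested genes -0.01 and -0.02. The spots of all 10 were well above background in DEP tissue on 6 or 7 arrays, so markers of the labelled cell type were measured. At 8 weeks the brighter probe of *Ermn* went against the 6 markers that fell.

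Markers of the mature neurons that sustentacular cells surround mostly moved with them. Of 12 markers of mature olfactory neurons, all measured on 7 of 7 arrays in both tissues, 9 were higher and 0 lower at 4 weeks, and 0 were higher and 9 lower at 8 weeks, with medians of 0.43 and -0.44. *Omp*, the olfactory marker protein, was at 0.89 and -0.43, and *Gnal*, the G protein of odorant receptors, at 0.61 and -0.72. Their summed level on the log2 scale was 16.37 to 16.61 in control tissue and 17.22 to 17.35 in DEP tissue at 4 weeks. At 8 weeks it was 17.08 to 17.25 in control and 16.61 to 16.67 in DEP tissue. The summed level of the 7 genes was 15.71 to 16.03 and 16.24 to 16.67 at 4 weeks, and 16.87 to 17.07 and 16.28 to 16.43 at 8 weeks, a sum led by the bright probe of *Cbr2*. Both sums were thus higher in DEP than in control tissue at 4 weeks and lower at 8 weeks, without overlap. Markers of immature olfactory neurons did not turn in this way as a list. Of 5, 2 were higher and 0 lower at 4 weeks, and 0 were higher and 1 lower at 8 weeks. Their medians were 0.20 and 0.11. The share of olfactory epithelium in the pieces of tissue was not measured, and its part in these results was not tested.

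**Figure D4:**
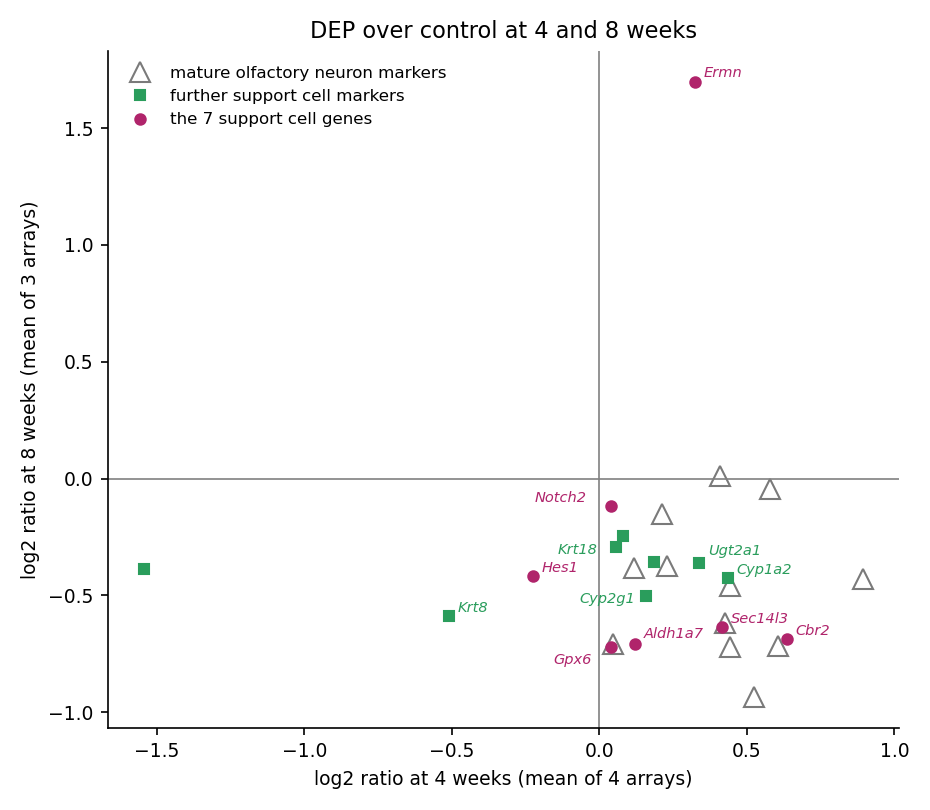
Mean log2 ratio of DEP over control at 8 weeks (vertical axis, 3 arrays) against that at 4 weeks (horizontal axis, 4 arrays) for the 7 genes (circles), 8 of the 10 further support cell markers (squares) and 12 markers of mature olfactory neurons (open triangles), 1 point per gene, with names for genes given in the text. *Sec14l3* and *Cbr2* lie at the lower right with most neuronal markers, and *Ermn* stands alone at the top.

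Other cells of the tissue gave mixed pictures. Among 4 tested markers of horizontal basal cells, *Krt15* and *Trp63* were higher at 4 weeks (1.08 and 0.68) and at 8 weeks (0.46 and 0.36), *Krt14* was at -0.54 and 0.73, and *Krt5* was at 0.16 and 0.05 without a call. Of 9 markers of respiratory ciliated cells, 6 were higher and 0 lower at 4 weeks and 2 and 0 at 8 weeks, *Foxj1* among the latter at 0.47. Of 6 gland markers, 2 were higher and 1 lower at 4 weeks, and 4 were higher and 1 lower at 8 weeks. *Bpifb9b* was at 0.66 at both times, *Aqp5* at 0.49 and -0.19, *Ltf* at 0.19 and 0.36, *Sox9* at -0.16 and 0.20 and the odorant-binding protein gene *Obp1a* at -0.26 and 1.50, and the gene lower at 8 weeks was the mucin gene *Muc5b*, at 0.25 and -1.54. Of 6 markers of respiratory secretory cells, 2 were higher at 4 weeks, the mucin gene *Muc5ac* at 1.20 and *Cyp2f2* at 0.56, and 4 were lower, *Scgb1a1* among them at -0.18. At 8 weeks 0 were higher and 1 was lower, *Spdef* at -0.28, and *Scgb1a1* was at 0.03. Among markers of olfactory ensheathing cells, the glia around olfactory axons, *Npy* was at -0.03 and -0.96, while *Sox10* was at 0.32 and -0.13 and *S100b* at -0.04 and -0.09.

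The other genes of the Notch pathway were given by role, with *Notch2* and *Hes1* left out of the counts. Of 4 tested ligands, *Dll1* was lower at 4 weeks (-0.32) and higher at 8 weeks (0.23), and *Jag1* and *Dll3* were higher at 8 weeks (0.48 and 0.41), while *Jag2* was not called at either time, at 0.09 and -0.18. Of the receptors, *Notch1* stood at -0.04 and 1.01 (limma adjusted p = 0.881 and 0.00574) and *Notch3* at 0.49 and -0.18 (limma adjusted p = 0.000394 and 0.0521). *Notch4*, like *Notch2*, was called at neither time. None of the 5 genes of the nuclear complex, *Rbpj* and its partners, was called at either time. Of 11 tested genes that process or modify the receptors, 2 were higher and 1 lower at 4 weeks and 2 were higher and 1 lower at 8 weeks, among them the protease gene *Adam10* at 0.53 after 8 weeks.

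Most targets called at 8 weeks were lower in DEP tissue, as *Hes1* was. Of 5 tested targets beside *Hes1*, 2 were higher and 0 lower at 4 weeks, and 1 was higher and 3 lower at 8 weeks. *Dtx1*, a ubiquitin ligase gene switched on by Notch, was at 0.55 and -0.81 with all 4 and all 3 arrays of one sign (limma adjusted p = 0.000116 and 2.66e-05). The repressor genes *Hey1* and *Hes5* were at 0.18 and -0.35 and at 0.02 and -0.53, and *Nrarp*, a feedback inhibitor, was at -0.06 and 0.22. *Heyl* was not called, with -0.41 and -0.11, the former drawn down by replicate 3 at -1.96. *Hes6*, which opposes Hes1, was at 0.25 and -0.36 and was called at both times. Only *Hes1* of these was called lower at both times, a position shared by 5.73% of all tested genes.

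**Figure D5:**
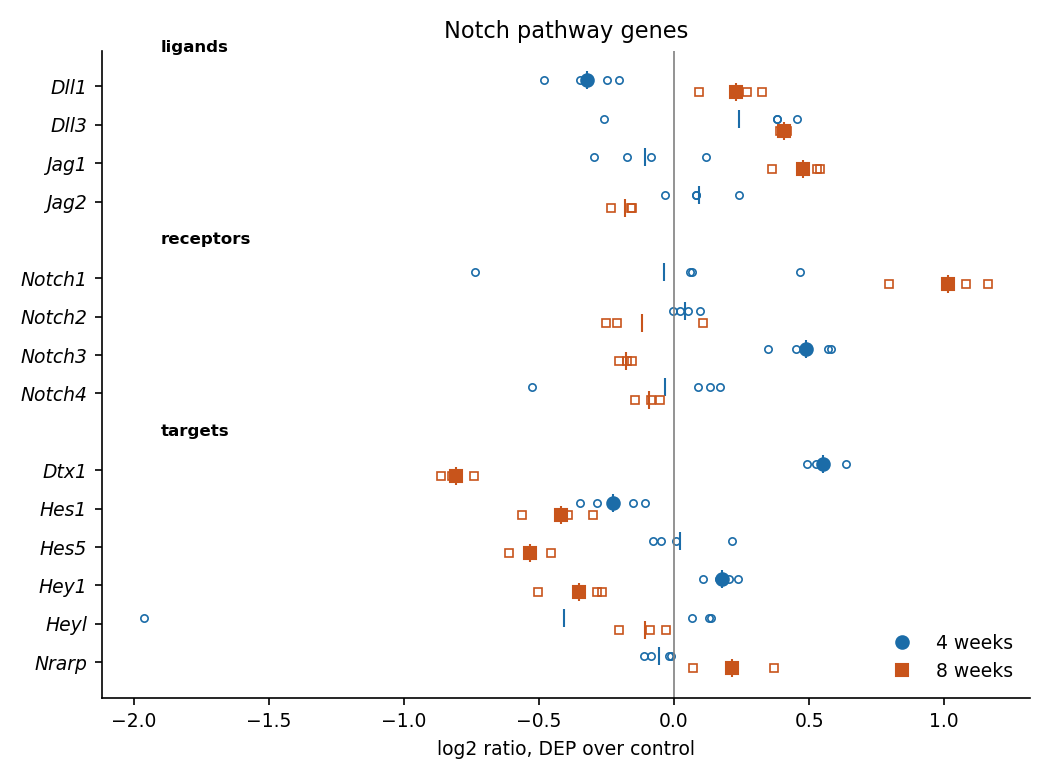
Log2 ratio of DEP over control (horizontal axis) for Notch ligands, receptors and targets (rows), with open symbols for single arrays, ticks for means and filled symbols where limma's adjusted p was at most 0.05, blue circles for 4 weeks and orange squares for 8 weeks. *Dtx1* lies right of 0 at 4 weeks and left of it at 8 weeks, and *Hes1* lies left of 0 at both.

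Relatives of the enzymes did not all move with them. Of 6 other aldehyde dehydrogenase genes, *Aldh1a1* was higher at 4 weeks (0.62) and at 0.05 at 8 weeks, and *Aldh2* was lower at 8 weeks (-0.55), while the other 4 were called at neither time. Of 6 tested relatives of *Gpx6*, 4 were lower at 4 weeks, *Gpx2*, *Gpx3*, *Gpx7* and *Gpx8* at -0.42 to -0.18. At 8 weeks *Gpx1*, *Gpx2* and *Gpx8* were higher, at 0.18 to 0.31, and *Gpx4* was lower at -0.49, so *Gpx4* was the member of this family called in the direction of *Gpx6*. Of the relatives of *Cbr2*, *Dcxr* was at 0.26 and -0.26 and was called at both times in the directions of *Cbr2*, *Cbr1* was higher at 4 weeks (0.18) and *Cbr3* lower (-0.39). Among the Sec14-like genes, *Sec14l2* was higher at 4 weeks (0.75) and at -0.13 at 8 weeks, and *Sec14l4* was lower at 8 weeks (-0.30). Of the proteins related to ermin, *Msn* was at -0.33 and 0.31, *Ezr* at 0.25 and 0.05 and *Rdx* at -0.08 and 0.41, so *Ezr* and *Ermn* were higher at 4 weeks and *Msn*, *Rdx* and *Ermn* at 8 weeks.

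For each gene the most similar pattern over the 7 arrays was sought among 15541 gene symbols by Pearson's r of the log2 ratios, as a description. The 7 arrays fall into the groups of 4 and 8 weeks and the search was long, so values near 1 arise for genes of either group. *Ermn* was most like *Ambn* and *Socs3*, both with r over 0.99, *Sec14l3* like *Cmtm5* and *Trnp1*, and *Cbr2* like *Wnk2* and *S100a5*, the latter a calcium-binding protein gene of olfactory neurons. *Gpx6* was most like *Cfap74* and *Zbtb40*, *Aldh1a7* like *Lyz1* and *Aqp4*, *Notch2* like *Dus2* and *Ftx*, and *Hes1* like *Begain* and *Sgf29*. These genes match in shape and not in level of the ratio, for *Ambn* went from -2.41 to 1.52 between 4 and 8 weeks while *Ermn* went from 0.32 to 1.70.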

How the data were processed

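Files deposited by the authors, 1 for every array, come from Feature Extraction 10.10.1.1. They hold median intensity values of spots and backgrounds without normalization, and processed intensity values after background subtraction and dye normalization, and the deposited ratio is the log10 of processed Cy5 over Cy3 (set to 0 on 13.4% to 33.8% of spots, and not used in a test). The GeneSpring normalization and the ExDEGA selection of the study were not repeated.

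With limma 3.58.1 in R 4.3.3, the median signals were corrected by normexp (offset 50), fitted without spots marked as background outliers, and normalized within arrays by loess. Non-uniform spots were left out and spots of a probe averaged. Of 39429 probes, 28330 were named through RefSeq accessions of GRCm38.p6. A model with a mean for each exposure time over all 7 arrays gave each ratio and the difference of the times, with p-values adjusted by Benjamini-Hochberg over 25197 tested probes. Channel levels used Aquantile normalization and lmscFit with an intraspot correlation of 0.418. The steps were tested on simulated data. The members, the 20 lists and the tests were chosen with earlier results of these data known. Named are the 7 members, their relatives, defining markers, up to 3 called genes in each direction of a list with 1 sign on all arrays, and the 2 most similar genes. *Krt18* and *S100b* lie outside this rule, chosen once the values were known. Arrays give no counting error, so their number limits the precision. The alternatives tried were the background correction, the normalization, the filter, the choice of probe, array weights, the arrays left out, a replicate block and the t-test of the study's methods. Some genes of the lists enter the counts but are not reported here by name.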

Additional observations from a re-analysis of the deposited data

Results flagged for a closer look

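*Cbr2* at 4 weeks had 1 array apart from the others. By its brighter probe, replicate 1 stood at a log2 ratio of 0.28, while replicates 2 to 4 stood at 0.77, 0.78 and 0.71, and this gap was 0.858 of the whole range, above the critical value of Dixon's test for 4 values. By the dimmer probe, replicate 1 stood at 0.39 and replicate 4 also at 0.39. Chance alone marks about 1 in 20 such groups, and 11 probes were looked at.

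For 5 genes the ratio of DEP over control differed between the exposure times by the test of the difference itself. The log2 difference of 8 minus 4 weeks was 1.38 for *Ermn*, -1.32 for *Cbr2*, -1.05 for *Sec14l3*, -0.83 for *Aldh1a7* and -0.76 for *Gpx6*. The value of *Ermn* holds for its brighter probe, and that of its dimmer probe was -0.35. In none of these values can the slide be told apart from the length of exposure or from the age of the mice at collection.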

How the results depend on the processing

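Of 413 values of single genes under the alternatives, 380 had the direction and the side of the threshold given above, 18 lost their call and 8 gained one. Those that turned in direction were *Gpx6* at 4 weeks, at -0.0443 with median centring in place of loess, and without 1 array at a time between -0.0488 (replicate 3 of 4 weeks) and 0.173 (replicate 1), with -0.00417 without replicate 2, and *Notch2*, at -0.0412 at 4 weeks with median centring and, with the mean of its probes, at -0.43 at 4 weeks (limma adjusted p = 0.0463), 0.0275 at 8 weeks and 0.46 for the difference. Leaving out 1 array at a time left 3 to 4 of the 7 genes called at 4 weeks, 6 to 7 at 8 weeks and 5 to 6 for the difference. In the lists, it left 45 to 60 (57 with all arrays), 32 to 58 (52) and 46 to 63 (62) genes called, the 32 without replicate 2 of 8 weeks. The t-test of the study's methods, with Benjamini-Hochberg adjustment, called 2 of the 7 genes at 4 weeks and 0 at 8 weeks when paired within arrays, and 2 at each time when unpaired, against 4 and 6 by limma. Of all tested genes it called 23% and 1.9% when paired and 16.1% and 10.3% when unpaired, against 38.5% and 37% by limma. By the paired test the adjusted p of those 6 genes at 8 weeks ran from 0.0547 for *Ermn* to 0.15 for *Cbr2*. Median centring shifted the median of all genes at 8 weeks to -0.16 and gave 1484 higher and 5994 lower genes against 2748 and 3080. There *Notch2* was called at -0.38, which is -0.22 relative to that median. With the scanner software's processed signals the medians were 0.08 at 4 weeks (4680 higher, 2456 lower, against 3202 and 2853) and -0.12 for the difference (2021 and 4165, against 2202 and 2773). With background fitted on all spots, 24.3% of genes were called at 4 weeks, and without replicate 2 of 8 weeks 21.4% at 8 weeks and 19.4% for the difference. Same-numbered arrays of the 2 times deviated together at r = -0.01 to 0.02, so the numbers do not pair them. A replicate block on replicates 1 to 3 called 5 of the 7 genes for the difference, as did the fit without it, and 16.3% of all genes against 26%.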
